A study of Mus musculus with 3 samples.

Results

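App, Bace1, Psen2, Htt, Sod1, Tardbp and Atxn2 are mouse genes whose human counterparts are tied to Alzheimer disease, Huntington disease, amyotrophic lateral sclerosis (ALS) and spinocerebellar ataxia. These 7 genes were picked by symbol for that link, out of 20805 genes whose reads were tabulated by region (5′ UTR, CDS, 3′ UTR). Each gene is represented by its longest transcript. Ribosome profiling, which sequences the mRNA fragments that ribosomes shield from nuclease, was applied to cultured cortical neurons that the study took from embryos of CD-1 mice. The WT library came from undrugged neurons and the Chx library from neurons given cycloheximide for 2 min, while Harr neurons received harringtonine for 2 min, followed by a brief cycloheximide pulse. The study's methods give the same rinse and lysis for these samples, with 3 dishes pooled into each library and 100 μg per ml cycloheximide in both buffers. The labels record no genotype. The treatment labels name no depolarization, but the free-text descriptions call the neurons "dep" and name cell fractions, which goes against the titles and treatments, and they were not used for grouping. There is 1 library per treatment, so no difference has a replicate check and every interval covers counting error only. Values of all 3 libraries are listed in the order Chx, Harr, WT unless a library is named.

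The libraries held 35722483, 9754412 and 30219197 aligned reads, which makes Harr the least precise. The 8 neuronal markers (Map2, Tubb3 and others) together took 4169 to 4965 CDS reads per 1000000 aligned reads across the libraries. The 4 astrocyte markers took 78.8 to 213, the 4 microglial markers 1.44 to 2.80 and the 4 oligodendrocyte markers 2.15 to 6.52, with the myelin genes Mog and Mobp at 0. All 4 sums were lowest in Harr, where 38.7% of the reads lay in CDS, and their part in the values that follow was not tested.

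Cycloheximide freezes ribosomes along the whole CDS. Harringtonine stops ribosomes that have just assembled at a start codon, while those already elongating run on and leave the CDS from its beginning. The App protein is cut by the β-secretase Bace1 and then by the γ-secretase, whose catalytic subunit is a presenilin such as Psen2, and the cuts release amyloid β. Huntingtin, the product of Htt, is a large scaffold whose polyglutamine tract is expanded in Huntington disease. Sod1 removes superoxide in the cytosol, Tardbp encodes the RNA-binding protein TDP-43, and Atxn2 encodes an RNA-binding protein with a polyglutamine tract in humans. Mutations in the last of these can cause ataxia or raise the risk of ALS.

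Start codons are shown first, because the 5′ UTR to CDS comparisons turn on them. Each line gives 15 bases before the start codon, the start codon in capitals and the 12 bases after it, from the GENCODE M21 transcripts.
App: ccacgcaggatcacgATGctgcccagcttg
Bace1: aggcccgggctcactATGgccccagcgctg
Psen2: cgctggggagtgaccATGctcgcattcatg
Htt: gggcaggaagccgtcATGgcaaccctggaa
Sod1: gtctcccggggaagcATGgcgatgaaagcg
Tardbp: gagatttaagcaaagATGtctgaatatatt
Atxn2: gccagcccgggtcccATGcgttcgtccacc
Atxn2 downstream: tatgggccgctcaccATGtcgctgaagccg
A purine stood 3 bases before the annotated start codon in 6 of the 7 genes, all but Atxn2, and in 84.1% of 20622 transcripts overall. Bace1, Htt and Sod1 also had a G right after the start codon, a combination held by 41.0% of those transcripts. The last line is a second start codon of Atxn2, 450 bases (150 codons) downstream in the same frame and annotated in a shorter transcript.

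In mm10 coordinates, the start codon of App is at chr16:85173556-85173558 on the minus strand, and that of Bace1 at chr9:45839028-45839030 on the plus strand. Psen2 starts at chr1:180245752-180245754 (minus) and Htt at chr5:34761907-34761909 (plus). Sod1 starts at chr16:90220858-90220860 (plus), Tardbp at chr4:148625360-148625362 (minus) and Atxn2 at chr5:121711636-121711638 (plus). The 5′ UTR measured 208 nt in App, 448 nt in Bace1, 104 nt in Psen2, 163 nt in Htt, 104 nt in Sod1, 353 nt in Tardbp and 27 nt in Atxn2. The CDS ran from 465 nt in Sod1 to 9363 nt in Htt, whose CDS is split over 67 exon segments.

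An upstream ATG, a possible start of a short upstream reading frame, was present in 3 of the 7 5′ UTRs and in 55.4% of 20673 5′ UTRs overall. Bace1 held 4, against a median of 3 in 2450 transcripts with a 5′ UTR within 20% of its length, and Psen2 and Htt held 1 each. All 6 frames ended before the annotated CDS. The 4 upstream ATGs of Bace1 and the 1 of Htt are shown, in capitals, because the 5′ UTRs of these genes carried at least 87 reads in every library.
Bace1 upstream 1: gctgggagctggattATGgtggcctgagca
Bace1 upstream 2: cgggctcggatagccATGcccgcccctccc
Bace1 upstream 3: gcggccggcgtccagATGtagctgggtccc
Bace1 upstream 4: gactctgcagtcctgATGccgccgaggccg
Htt upstream: cgggacgggcccaagATGgctgagcgcctt
In Bace1 the frames spanned 3, 21, 1 and 7 codons before the stop and began 390, 283, 223 and 101 nt before the CDS. In Htt the frame spanned 21 codons and began 132 nt before the CDS. Reads were counted over the whole 5′ UTR of these genes, so none can be placed on a given upstream frame.

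App was by far the most read of the genes. In such bulk libraries, fewer cells of a type and less RNA per cell cannot be told apart. Its CDS held 64988, 15106 and 44276 reads, which made up 77.9%, 81.0% and 73.8% of the CDS reads of the 7 genes. Levels between genes are compared as CDS reads per kilobase per 1000000 aligned reads (RPKM). In Chx, App stood at 787 RPKM (exact Poisson 95% interval 780 to 793), above 99.5% of 13106 genes with at least 10 CDS reads. Sod1 followed with 366 (357 to 376) and Tardbp with 96.3 (93.4 to 99.2). The 4 others were far lower: Atxn2 had 29.4 (28.5 to 30.3), Bace1 27.7 (26.3 to 29.2), Psen2 10.8 (9.90 to 11.8) and Htt 6.16 (5.90 to 6.43). Htt, with 2060 reads spread over its long CDS, still ranked above 40.2% of genes.

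In WT the same RPKM order held except at Atxn2 and Bace1, whose intervals overlapped in both Chx and WT. App had 633 RPKM there, Sod1 368, Tardbp 120.1, Bace1 26.3, Atxn2 25.1, Psen2 9.02 and Htt 5.50. In Harr, App had 669.5 RPKM, Sod1 106.7, Tardbp 49.1, Atxn2 38.7, Bace1 19.1, Psen2 7.0 and Htt 6.91, and there it was Psen2 and Htt whose intervals overlapped. The median over the 7 genes was 29.4, 38.7 and 26.3 RPKM.

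**Figure D1:**
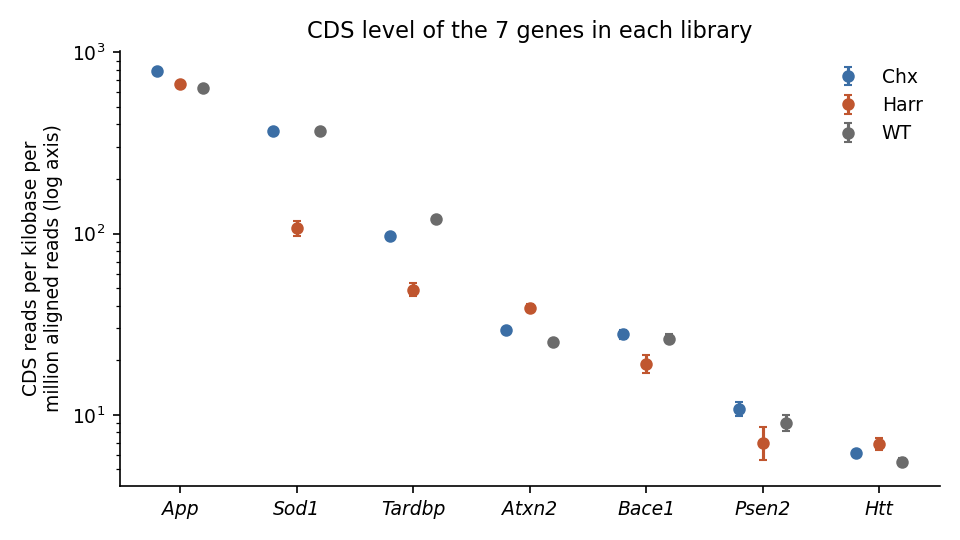
CDS reads per kilobase per 1000000 aligned reads (log axis) of each gene in the Chx, Harr and WT libraries, with exact Poisson 95% intervals of the count. App is highest in every library, and Sod1 drops from 366 in Chx and 368 in WT to 106.7 in Harr.

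The first comparison between libraries asks how the share of each gene in the CDS reads differed after harringtonine. Counts were scaled to the CDS reads of each library, and a gene was called when its ratio was at least 2-fold with a 95% counting interval that excluded 0 on the log2 scale. Sod1 was the 1 gene of 7 called lower in Harr than in Chx, and none was called higher. Over the 11448 genes whose CDS reads summed to 100 or more over the 3 libraries, 13.6% were called lower and 4.63% higher. Sod1 held 6084, 484 and 5174 CDS reads, a log2 ratio of −1.23 (−1.36 to −1.10) for Harr against Chx.

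Atxn2 and Htt lay at the other end. Atxn2 held 4049, 1457 and 2933 CDS reads, a log2 ratio of 0.95 (0.86 to 1.03) against Chx, above 94.2% of genes. Htt held 2060, 631 and 1555, a log2 ratio of 0.71 (0.59 to 0.84). App stood at 0.32 (0.29 to 0.34). Between them lay the secretase genes and Tardbp. Bace1 held 1492, 281 and 1198 CDS reads (log2 ratio 0.01, −0.17 to 0.20), Psen2 520, 92 and 367 (−0.07, −0.39 to 0.25) and Tardbp 4282, 596 and 4517 (−0.42, −0.55 to −0.30).

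Harr against WT uses the same Harr library, so it is not a separate sample of the treatment. There Sod1 was called lower, with a log2 ratio of −1.27 (−1.41 to −1.14), and Atxn2 was called higher, with 1.13 (1.04 to 1.22). Counted from its downstream start codon, a choice made after seeing the data, Atxn2 stood at 0.99 (0.89 to 1.08) and was no longer called. Among all genes 14.3% were called lower and 5.29% higher. The other 5 genes were Htt at 0.84, App at 0.59, Psen2 at 0.15, Bace1 at 0.05 and Tardbp at −0.78. The scale bears on these values, since the CDS took a smaller share of the reads in Harr than in Chx (56.5%) and WT (55.1%). With all aligned reads as the scale, every log2 CDS ratio was lower by 0.55 for Harr against Chx and by 0.51 for Harr against WT. Relative to all genes nothing moves, but App (−0.23) and Bace1 (−0.53) then lay below 0 against Chx, and Bace1 (−0.46) and Psen2 (−0.36) against WT. Against WT, Atxn2 was no longer called (0.62) and Tardbp was called lower (−1.29).

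The ratio tended to rise with CDS length, as it did over the whole table, although Atxn2 stood above the longer Htt. Over all genes the median Harr to Chx log2 ratio stood at −0.68 for 1669 genes with a CDS under 600 nt, −0.07 for 3157 genes of 1200 to 2000 nt, 0.36 for 2646 genes of 2000 to 4000 nt and 0.66 for 836 longer genes. App, Bace1, Psen2 and Htt lay within 0.08 of the median of their length class. Sod1 lay 0.55 below that of its class and Tardbp 0.36 below, above 25.7% and 25.4% of those genes. Atxn2 lay 0.58 above, higher than 91.4% of the genes of its class. Its CDS of 3861 nt is near the upper edge of that class, and the next class had the higher median of 0.66.

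**Figure D2:**
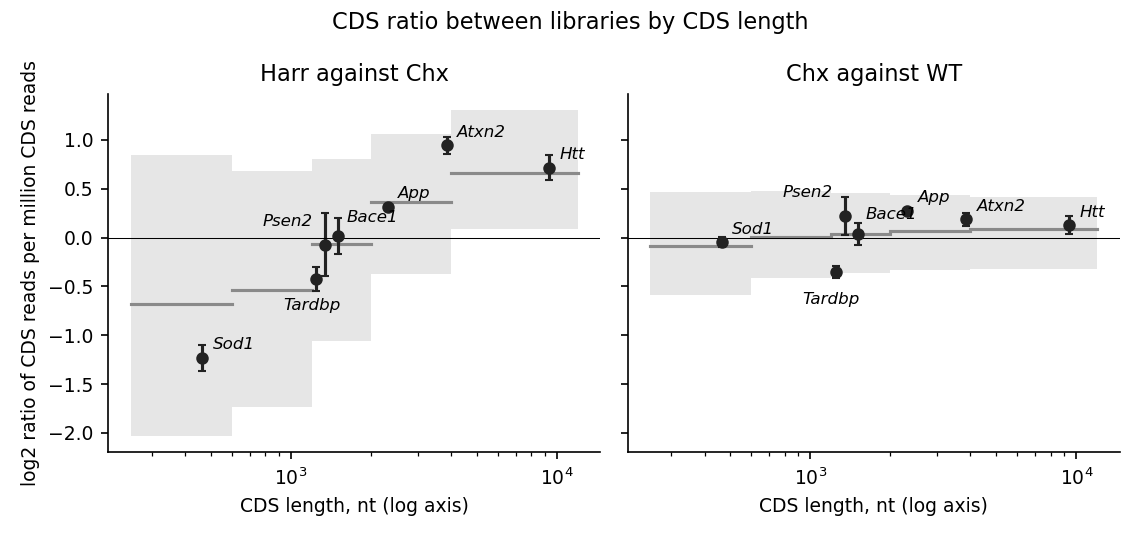
Log2 ratio of CDS reads, scaled to the CDS reads of each library, against CDS length (log axis) for Harr against Chx (left) and Chx against WT (right), with 95% counting intervals. Grey lines are the all-gene medians of 5 length classes and grey bands run from their 5th to 95th percentile, and the left panel rises from Sod1 at −1.23 to Htt at 0.71 and Atxn2 at 0.95.

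Cycloheximide before lysis made little difference to the CDS share of these genes. None of the 7 was called in Chx against WT, where 0.192% of genes were called higher and 0.122% lower. Tardbp stood lowest at −0.36 (−0.42 to −0.29), above 7.71% of genes. App stood highest at 0.28 (0.26 to 0.29), followed by Psen2 at 0.22, Atxn2 at 0.19, Htt at 0.13, Bace1 at 0.04 and Sod1 at −0.04.

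The 5′ UTR told the genes apart more sharply. Only the first base of a read decided its region, so the footprint of a ribosome on the annotated start codon falls in the 5′ UTR, together with any ribosome farther upstream. Bace1 had the most 5′ UTR reads for its CDS in Chx and WT. Its 5′ UTR held 424, 371 and 305 reads, which is 28.4, 132 and 25.5 reads per 100 CDS reads. The all-gene medians were 8.91, 48.1 and 5.08, and Bace1 stood above 83.0%, 77.5% and 87.2% of genes. In Harr its 5′ UTR thus held more reads than its CDS.

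Htt had fewer 5′ UTR reads per CDS read but packed them densely. Its 5′ UTR held 193, 125 and 87 reads, or 9.37, 19.8 and 5.59 per 100 CDS reads. Per nucleotide, that was 5.38, 11.4 and 3.21 times the density of its CDS. The same ratio for Bace1 was 0.955, 4.44 and 0.856. In Chx and WT, Htt sat near the middle of all genes (above 50.5% and 51.2%), while in Harr it stood above only 27.8%.

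App carried 3537, 5564 and 1787 reads in its 5′ UTR, or 5.44, 36.8 and 4.04 per 100 CDS reads. Nearly all of them lay in the 147 nt next to the CDS, which a shorter App transcript delimits. The 61 nt farther upstream held 7, 6 and 0 reads. A count of 0 allows up to 3 reads there in WT.

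Sod1 moved most between libraries. Its 5′ UTR held 651, 777 and 114 reads, or 10.7, 161 and 2.20 per 100 CDS reads. In Tardbp the 93, 161 and 204 reads were nearly all in the 14 nt next to the start codon, which held 91, 154 and 199. The upstream exon of 339 nt held 2, 7 and 5.

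Psen2 and Atxn2 had almost no 5′ UTR reads. Psen2 held 4, 1 and 1, all in the 3 nt of the start-codon exon, and 0 in its upstream exon of 101 nt in each library, where 0 allows up to 3 counts. Over 222 genes with 1 to 3 nt of 5′ UTR in the start-codon exon, the medians were 5.66, 29.3 and 2.88 reads per 100 CDS reads, against 0.769, 1.09 and 0.272 in Psen2. Reads of Psen2 near its start did appear in the first CDS segment (141 nt), with 108, 39 and 57. That segment had 405% of the whole-CDS density in Harr and stood at a log2 ratio to Chx of 0.96 ± 0.27 (counting SE), while the second segment stood at −1.65 ± 0.51.

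The annotated 5′ UTR of Atxn2, 27 nt, held 1 read in Chx and 0 in Harr and WT. The reads lay farther down. From the annotated start codon to the beginning of a shorter transcript, 224 nt at chr5:121711636-121711859, there were 17, 24 and 13 reads. In the next 226 nt, chr5:121711860-121712085, which are CDS in the longest transcript and 5′ UTR in the shorter one, there were 181, 160 and 88. The 191 nt after the downstream start codon shown above held 187, 27 and 92. Harringtonine thus left the 226 nt before the downstream start codon at 0.708 reads per nt, against 0.141 after it and 0.107 before.

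**Figure D3:**
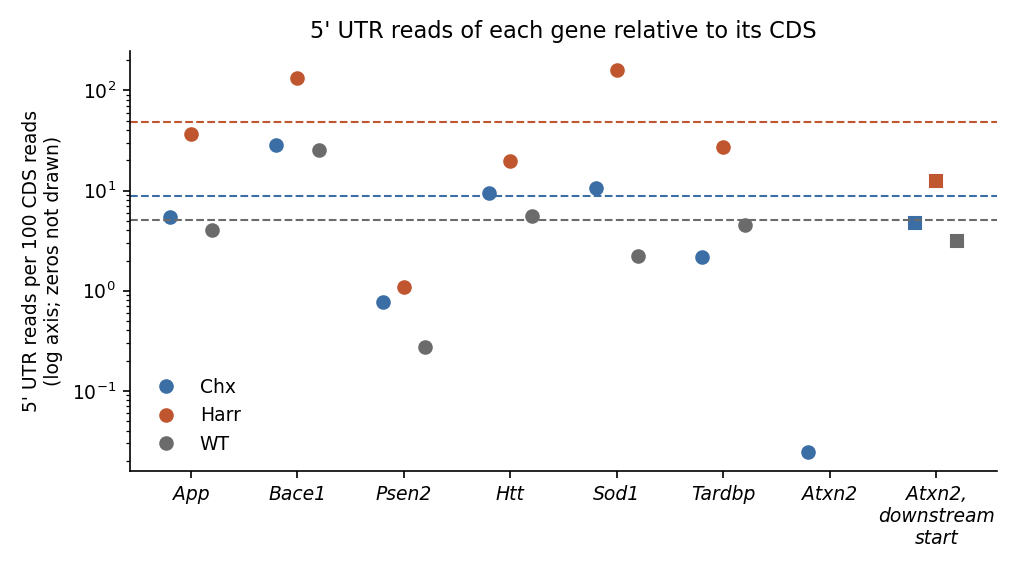
5′ UTR reads per 100 CDS reads (log axis) of each gene in the 3 libraries, with dashed lines at the all-gene medians of 8.91 (Chx), 48.1 (Harr) and 5.08 (WT). Squares give Atxn2 from its downstream start codon, circles the longest transcripts, and the zeros of Atxn2 in Harr and WT are not drawn.

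In the comparison of 5′ UTR to CDS reads between libraries, 5 of the 7 genes had at least 10 reads in each region, summed over the pair. All 5 were called higher in Harr than in Chx and in Harr than in WT, which share Harr. That is the common behaviour, since 89.4% of 10713 genes were called higher against Chx and 94.3% of 10302 against WT, with 0.103% and 0.136% lower. Against Chx the all-gene median log2 odds ratio was 2.46, and Sod1 stood above it at 3.91 (3.70 to 4.11), as did Tardbp at 3.63 (3.24 to 4.02) and App at 2.76 (2.69 to 2.82). Bace1 stood at 2.21 (1.94 to 2.49).

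Htt had the smallest shift, 1.08 (0.73 to 1.43), above 8.93% of genes. Without the CDS segment that holds the start codon, it was 0.99 and no longer called. Against WT, Sod1 reached 6.18 (5.87 to 6.49), above 98.8% of genes, where the median was 3.23. The others stood at 3.19 in App, 2.58 in Tardbp, 2.37 in Bace1 and 1.82 in Htt. Read from its downstream start codon, a reading added after seeing the data, Atxn2 had log2 odds ratios of 1.42 (1.10 to 1.74) against Chx and 2.01 (1.63 to 2.40) against WT, both below the median.

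Chx against WT set Sod1 and Tardbp apart in opposite directions. Sod1 was called higher in Chx at 2.27 (1.98 to 2.57), above 95.2% of genes, and Tardbp was called lower at −1.05 (−1.41 to −0.69), above 1.62%. Among 10419 genes, 30.4% were called higher and 1.08% lower, and the median was 0.67. Htt stood at 0.74 (0.36 to 1.12), App at 0.43 (0.35 to 0.52) and Bace1 at 0.16 (−0.08 to 0.40).

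Along the CDS, the Harr and Chx reads were compared exon by exon. App had the most reads for it. The first segment (57 nt) held 6579, 1616 and 2566 reads, and the third (130 nt) held 2502, 86 and 1416. The last (102 nt) held 1618, 1003 and 2044. On the log2 scale, Harr against Chx was 0.40 ± 0.04 in the first segment, −2.43 ± 0.16 in the third and 1.73 ± 0.06 in the last. The ratio of the window from 300 to 1200 nt to the window past 2100 nt was lower in Harr than in Chx. Its log2 odds ratio was −2.35 (−2.46 to −2.25), above 16.2% of the 2363 genes compared.

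Bace1, Psen2, Sod1 and Tardbp were also low in Harr behind the first segment, and Bace1 within it too (−1.27 ± 0.29). Low values there are common, since the all-gene median log2 ratio of Harr to Chx from 300 to 1200 nt was −0.55. In that window Bace1, Psen2, Sod1 and Tardbp stood above 55.4%, 35.9%, 25.9% and 45.9% of genes. From 262 to 1092 nt, Bace1 held 672, 49 and 429 reads, a log2 ratio of Harr to Chx of −1.34 (−1.76 to −0.93). Its last segment held 300, 138 and 288 and stood at 1.30 ± 0.15. Psen2 held 379, 32 and 281 reads from 142 to 1191 nt, a log2 ratio of −1.12 (−1.64 to −0.61), and 8 of its 10 segments had fewer than 10 reads in Harr. Sod1 held 4236, 246 and 3615 reads from 73 to 357 nt (−1.68, −1.87 to −1.50), and Tardbp 1704, 94 and 1899 from 239 to 714 nt (−1.75, −2.05 to −1.45). The last segment of Tardbp (531 nt) held 1451, 286 and 1400 and stood at 0.08 ± 0.09, while that of Sod1 (108 nt) held 1001, 87 and 1074 and stood at −1.10 ± 0.16.

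Htt did not show that dip beyond its first segment. The first segment (203 nt) held 178 reads in Chx, and Harr stood at −1.01 ± 0.37 against it. From 204 to 1008 nt there were 285, 85 and 304 reads, a log2 ratio of 0.68 (0.33 to 1.03) against Chx and 0.31 (−0.04 to 0.66) against WT. In the window from 300 to 1200 nt Htt stood at 0.57 (0.23 to 0.91), where the all-gene median was −0.55, above 91.7% of genes. Its later windows were close to those of other genes, at 0.96 (0.52 to 1.40) from 1200 to 2100 nt and 0.83 (0.68 to 0.99) past 2100 nt, with all-gene medians of 0.87 and 1.09. The depth was low, since 37 of the 67 segments had fewer than 10 reads in Harr.

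Atxn2 held its low stretch farther into the CDS. From 642 to 1175 nt it held 539, 54 and 420 reads, a log2 ratio of Harr to Chx of −0.89 (−1.29 to −0.48). Its window from 300 to 1200 nt, which takes in the whole first segment of 641 nt by its midpoint, stood at 0.62 (0.42 to 0.82), above 92.4% of genes. That is close to the value of Htt, but 211 of the 265 Harr reads of this Atxn2 window lay in the first segment. In the window from 1200 to 2100 nt Atxn2 was at 0.09 (−0.09 to 0.28), above 8.45% of genes, and past 2100 nt at 1.50 (1.38 to 1.61). Its first segment, which holds both start codons, stood at 1.55 ± 0.12.

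**Figure D4:**
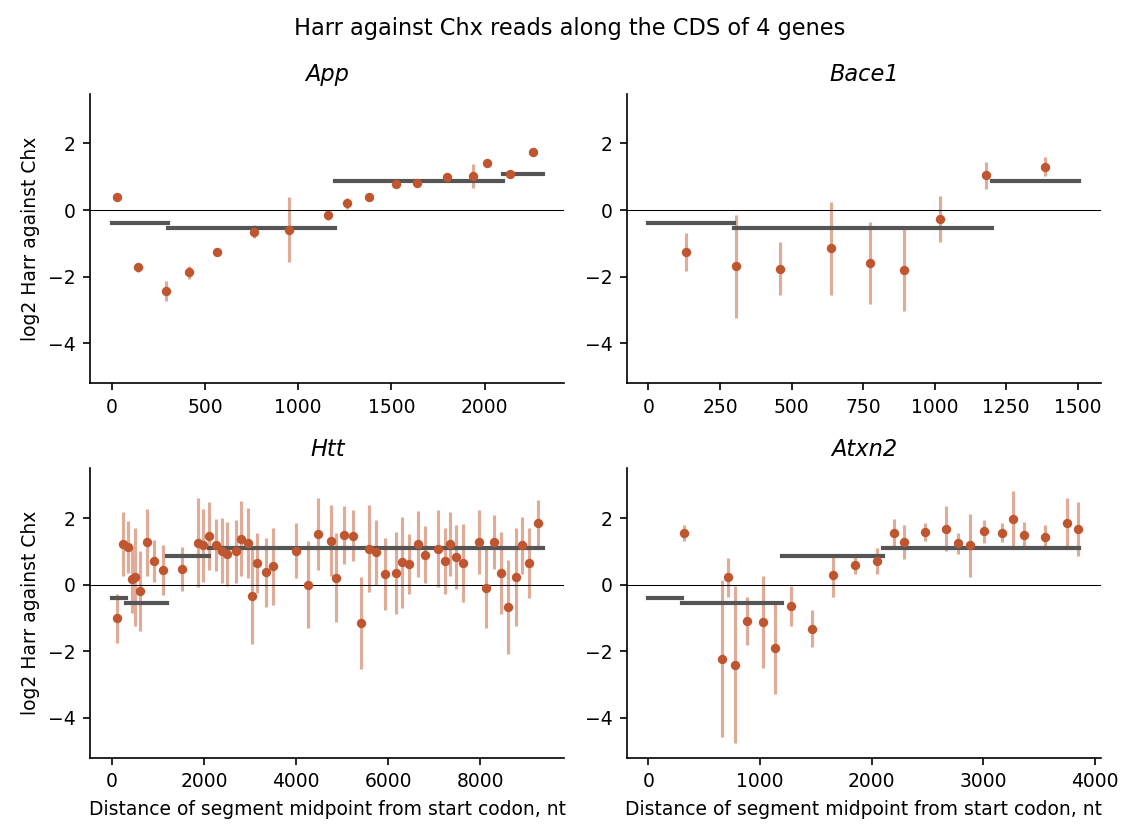
Log2 ratio of Harr to Chx reads in each CDS segment of App, Bace1, Htt and Atxn2 with at least 20 reads in the pair, against the distance of the segment midpoint from the start codon in nt, with 95% counting intervals and grey lines at the all-gene window medians. App climbs from −2.43 in segment 3 to 1.73 in its last, while Htt stays near its later level behind the first segment.

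Chx against WT also differed along App. The first segment stood at 1.08 ± 0.03 and the last at −0.62 ± 0.05. In Sod1 the corresponding values were 0.53 ± 0.08 and −0.38 ± 0.06, and in Htt 0.65 ± 0.18 and −0.61 ± 0.30. Psen2 had 0.64 ± 0.24 in its first segment and −0.09 ± 0.36 in its last. Atxn2 had 0.72 ± 0.13 and −1.05 ± 0.32. In Bace1 the first segment did not differ beyond counting error, at 0.01 ± 0.12, and the last stood at −0.22 ± 0.12. Tardbp lay below 0 at both ends, at −0.39 ± 0.06 and −0.23 ± 0.05.

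The exon counts also bear on the App isoforms. The seventh segment (168 nt, chr16:85043576-85043743, the Kunitz protease inhibitor exon) held 76, 9 and 53 reads. The eighth (57 nt, chr16:85040251-85040307) held 12, 0 and 26. Some annotated App transcripts skip these exons. Together they had 2.96% of the read density of the sixth and ninth segments in Chx (2.37 to 3.65), against 2.08% (0.95 to 3.96) for Harr and 3.40% (2.70 to 4.24) for WT.

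The fifteenth segment (54 nt), skipped by 3 of 5 other transcripts, held 222, 84 and 140 reads, or 14.6% of the CDS density in Chx. Short segments read low in general. Internal segments of 40 to 60 nt had a median of 56.7% of their CDS density in Chx, and those under 40 nt 15.6%. Against 13066 internal segments within 20% of its length, 0.329% were as low as the seventh App segment. The same share was 1.27% of 3455 for the eighth and 8.44% of 2809 for the fifteenth. The third segment of Sod1 (70 nt) was low too, although no other coding transcript of Sod1 was there to skip it. It held 64, 0 and 83 reads, 6.99% of the CDS density in Chx. Of 6592 internal segments within 20% of its length, 1.84% were as low. Of its 25-base words, 64.3% also occur in pseudogenes, which does not set it apart within Sod1. Segments 2 and 5 had higher shares (74.2% and 65.7%) and stood at 130% and 70.8% of the CDS density in Chx. Segments 1 and 4 had lower shares (50% and 33.1%) and stood at 89.9% and 163%.

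**Figure D5:**
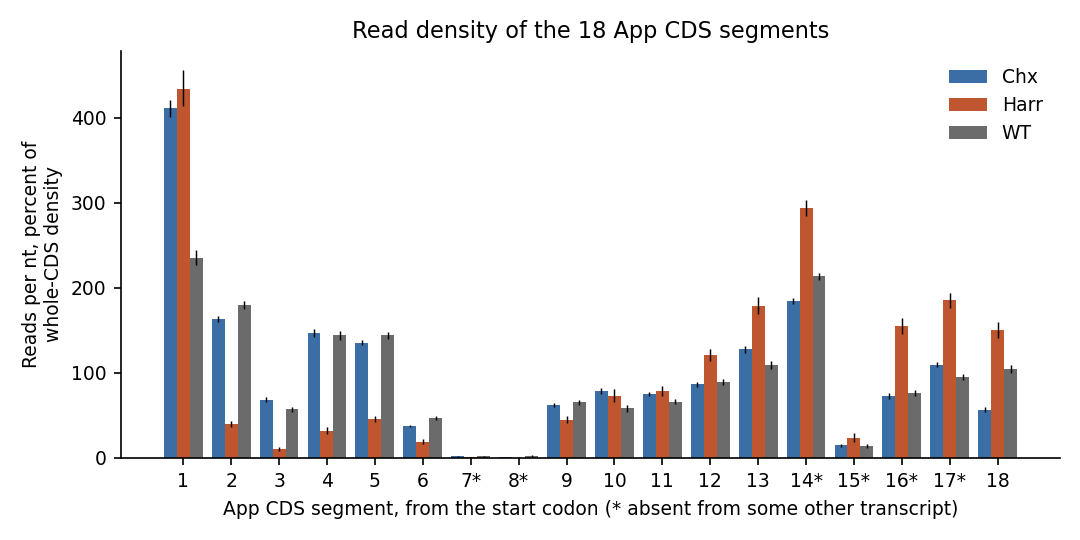
Reads per nt of the 18 App CDS segments as a percent of the whole-CDS density in each library, with exact Poisson 95% intervals and asterisks on segments absent from some other protein-coding transcript. Segments 7 and 8 are near 0 in all 3 libraries, and in Harr segments 2 to 6 are low while segments 1, 12 to 14 and 16 to 18 are high.

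Reads of Sod1 and Tardbp are the least certain. Of the 25-base words of the Sod1 CDS, 56.6% occur in the processed pseudogenes Gm8238 or Gm8566, and 24.2% of those of Tardbp occur in Gm12879 or Gm13886. The corresponding share was 0 in App, Bace1 and Psen2, 0.0427% in Htt and 1.06% in Atxn2, and 0 in the 5′ UTR of all 7. Antisense genes overlap App and Bace1, and the counted regions carry a strand.

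The 3′ UTR of these transcripts served as background, although part of it in Tardbp and Atxn2 is CDS in another transcript. App held 28, 533 and 316 reads there, in 5646 nt. The first 687 nt took 22, 531 and 311 of them. In Bace1 the first 67 nt of 4104 took 3 of 11, 36 of 58 and 8 of 13 reads. The other genes held few: 4, 20 and 24 in Sod1, 18, 14 and 37 in Tardbp, 31, 33 and 32 in Atxn2, 2, 11 and 2 in Psen2 and 1, 6 and 3 in Htt.

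Relative to the CDS, 6 of the 6 genes with enough 3′ UTR reads were called higher in Harr than in Chx and than in WT. The background was 86.5% of 5211 genes and 79.8% of 5790. App stood at 6.33 (5.79 to 6.88) against Chx and 2.30 ± 0.10 (counting SE) against WT. In Chx against WT, App was called lower at −4.03 (−4.58 to −3.47), above 3.15% of genes, and Sod1 at −2.68 (−4.13 to −1.23), beside 38.9% of 4585 genes called lower. For Bace1, Tardbp and Atxn2 the ratio was not called, at −0.55, −0.94 and −0.51.

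A list of 72 other genes of the same diseases and pathways gave the setting. For Harr against Chx CDS reads, 68 were measured deeply enough, 10 were called lower (14.7%, beside 13.6% of all genes) and 2 higher (2.94%, beside 4.63%), with a median of −0.05 beside −0.05 over all genes. Highest was Atxn2l, the paralog of Atxn2, at 1.32 ± 0.03, and Atn1, the atrophin gene, was the other called higher, at 1.32 ± 0.04. Lowest was Chchd10, a small mitochondrial protein linked to ALS, at −2.07 ± 0.10. Both other superoxide genes with enough CDS reads, Sod2 (mitochondrial) at −1.93 ± 0.09 and Ccs (the copper chaperone for Sod1) at −1.85 ± 0.27, were called lower.

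Against WT, 13 of the 68 list genes were called lower (19.1%, beside 14.3% of all genes) and 3 higher (4.41%, beside 5.29%), with a median of 0.02 beside 0.00 over all genes. The 3 were Atxn2l at 1.29 ± 0.03, Atn1 at 1.02 ± 0.04 and the sorting receptor gene Sorl1 at 1.02 ± 0.07. Apoe, the lipid carrier made mainly by astrocytes, was lowest at −2.31 ± 0.09. In Chx against WT none was called, from Pink1 at 0.76 ± 0.06 to Nek1 at −0.60 ± 0.14.

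For 5′ UTR to CDS reads, 65 of 67 list genes were called higher in Harr than in Chx (97%, beside 89.4% of all genes) and 64 higher than in WT (95.5%, beside 94.3%), with none lower. The medians were 2.64 and 3.39, beside 2.46 and 3.23 over all genes. Against Chx, Sod3, the extracellular dismutase, was highest at 6.27 ± 2.22, a value that depends on the added count since its CDS held 0 reads in Harr, and the calcium channel gene Cacna1a lowest at 0.33 ± 0.20. Against WT they were Atxn3, the deubiquitinase of another ataxia, at 5.94 ± 0.91 and Cacna1a at 0.64 ± 0.22. In Chx against WT, 20 were called higher (29.9%, beside 30.4% of all genes) and none lower (1.08% of all genes), with a median of 0.67, from Atxn3 at 3.49 ± 0.82 to the γ-secretase subunit Ncstn, whose transcript here has a CDS of only 189 nt, at −0.98 ± 0.45. Tardbp was called lower in that comparison. At the all-gene share of 1.08%, a list of 67 genes would hold few such calls or none, so their absence does not set Tardbp apart.

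Likeness to Bace1 and Htt was measured as the Euclidean distance over 5 log2 values, which were the CDS ratios of Harr to Chx and of Chx to WT and the 5′ UTR to CDS ratio in each library. It was taken over 8802 genes with at least 200 CDS and 30 5′ UTR reads. Nearest to Bace1 were Elfn1 (distance 0.24), Slc8a3 (0.26), a sodium/calcium exchanger, and Plppr1 (0.26), where the median gene lay at 3.13. Nearest to Htt were Cdh13 (0.24), which encodes T-cadherin, and the receptor tyrosine phosphatase genes Ptprf (0.28) and Ptpro (0.29), with a median of 2.96.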

How the data were processed

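Ribosome profiling of mouse cortical neurons gave 3 libraries, and 9 tables (3 per library, for 5′ UTR, CDS and 3′ UTR) were used. The deposited counts are whole reads per exon segment of each transcript, the deposited coverage signal is that count per nucleotide, and deposited RPKM values scale it per kilobase and library size. Per the file headers, the authors counted reads of 25 to 100 nt with Plastid at their 5′ end with an offset of 0, on mm10 regions, from alignments whose names mark ribosomal reads and duplicates as removed. The study's methods name TopHat, with several placements per read allowed, for its reading-frame search on these treatments and Rsubread for its other ribosome profiling. Which of them made the tables is not given in the sources used here, so how reads that cross exon junctions or align to several places were treated is unknown. Amplified reads need not be independent molecules.

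Counts alone were used, and RPKM was recomputed from them. Of 142446 transcript identifiers, 99.1% matched GENCODE M21 with their version and 99.4% without it. Counts were summed over the longest transcript of each gene, following the study's choice. Ratios used 0.5 added to each count and standard errors from counts (SE on the log2 scale). CDS ratios were scaled to CDS reads and computed where a gene reached 100 of them over all libraries. UTR to CDS ratios were log2 odds ratios, where the pair of libraries together had 10 or more reads in each region. A call needed 2-fold and a 95% counting interval that excluded 0. Levels carry exact Poisson intervals. At 3 counts, the floor is 0.0840 (Chx), 0.308 (Harr) and 0.0993 (WT) reads per 1000000. Segments were placed in windows by their midpoint, and all-gene window medians used genes with at least 20 reads.

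The members and the related list were chosen with earlier results of these data known. Named from the list were the highest and lowest gene of each measure and pair and those called in the rarer direction, and, for Bace1 and Htt, the 3 nearest genes. Sod2 and Ccs were named after their values were seen. On simulated Harr against Chx counts with 200 of 11441 genes changed 4-fold, 99.5% were recovered for the CDS ratio, their 95% intervals covered the true change in 90.5%, and 0.240% of the unchanged genes were called. For the 5′ UTR to CDS ratio, 90.9% of 197 changed genes among 10722 were recovered and 1.44% of the unchanged were called. In that simulation the all-gene median was subtracted before calling. The 5′ UTR calls reported here subtract no median, so these rates do not apply to them. Alternatives changed the transcript, the added count, the minimum, the scaling, the genes and the windows. Python 3.11.15, numpy 2.4.6, pandas 2.3.3 and scipy 1.17.1 were used.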

Additional observations from a re-analysis of the deposited data

How the results depend on the processing

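Leaving out a replicate was not possible with 1 library per treatment. No paired analysis was possible because each treatment has 1 library and the labels give all of them the same replicate number. Over 280 recomputed values of single genes, none that was called changed sign, 3 calls were lost, 1 was gained and 38 others moved past their counting interval. Of the 38, 21 were levels that moved with the change of unit to CDS reads. The transcript with the most reads was the longest transcript in all 7 genes, so its 74 values kept the same counts. Dropping the minimum (21 values), a minimum of 50 reads (25) and leaving out UTRs that overlap CDS (26) changed only which genes entered. Apart from slight rescaling, the values of these settings were fixed in advance and do not test robustness. Adding 5 to each count moved no call.

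With scaling to all aligned reads, 0 of the 7 genes were called higher and 2 lower in Harr against WT CDS reads. With Atxn2 counted from its downstream start codon, chosen after seeing the data, 0 were called higher there. A minimum of 50 reads left 3 genes called higher for the 3′ UTR in Harr against Chx and 1 lower in Chx against WT, since fewer genes entered. Scaled to 1000000 CDS reads, the median level became 51.9, 100.1 and 47.8 (Chx, Harr, WT) by construction. Windows set by the start of the segment gave App log2 odds ratios of −2.81 (Harr against Chx), −2.01 (Harr against WT) and 0.80 (Chx against WT). They took Atxn2 to −2.32 and −2.06 in the first and second of these pairs, from −0.88 and −0.53, because its first segment of 641 nt then left the window from 300 to 1200 nt. Both Atxn2 values thereby newly passed the 2-fold rule, and window values are not part of the tally of single-gene values above.

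The depth of Harr limited Htt exon by exon. The 5′ UTRs of Psen2 and Atxn2 held at most 4 reads in any library, the deeper Chx and WT included, so a difference was not detectable.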
